A study of Mus musculus with 6 samples.

Results

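The regions described here are internal alternative promoters, that is, stretches of accessible chromatin at transcription start sites (TSSs) that lie well inside a gene. An ATAC-seq interval was a member when it came within 300 bp of the TSS of a protein-coding transcript that starts more than 5 kb downstream of the 5′-most TSS of its gene and more than 1 kb from the 5′-most TSS of any protein-coding gene, on autosomes only, by the GENCODE vM1 annotation of mm9. This rule selected 1002 of the 39768 intervals (2.52%), at 1178 TSS positions of 611 genes on all 19 autosomes. No measured value entered the rule beyond the presence of an interval.

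Accessibility was measured in muscle nuclei of C57BL/6 mice at 7 weeks, in 3 CTL and 3 H2A.Z dKO libraries of 50000 nuclei each. All mice carried floxed alleles of both H2A.Z genes (H2A.Z-1 flox/flox and H2A.Z-2 flox/flox), CTL (titled WT) without and dKO with the HSA-Cre transgene, which is active in differentiated skeletal muscle fibres and not in the other cell types of the muscle. The sample labels name tibialis anterior nuclei purified through sucrose, and the methods describe hind limb muscles and a Dounce homogenizer. Nothing in the labels ties a library to its own animal, so the p-values given here measure the spread between libraries only. ATAC-seq counts the ends that the Tn5 transposase leaves in DNA not covered by nucleosomes. H2A.Z is a histone variant enriched in the nucleosomes that flank active promoters, and the comparison asks whether these promoters were more or less open in muscle whose fibres were meant to lack it.

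Many mammalian genes start at more than one promoter. An internal promoter skips the upstream exons, so that it can give a shorter protein, a protein with another amino terminus, or the same protein under another control. Skeletal muscle offers several textbook cases. Myl1 makes the long myosin alkali light chain from its first promoter and the short one from an internal promoter, Ank1 makes small ankyrins of the sarcoplasmic reticulum from a promoter near its 3′ end, and Camk2a makes the anchoring protein αKAP from an internal promoter. All 3 had an interval at the internal TSS.

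The 6 libraries held 3520008 to 6117245 counts in intervals. H2A.Z-1 is encoded by H2afz, and 2 intervals overlapped its floxed segment (chr3:137528097-137529104, exons 2 to 4). The CTL libraries held 79, 69 and 33 counts there and the dKO libraries 57, 52 and 64. That is 12.4 ± 2.80 and 11.3 ± 1.52 CPM (counts scaled to the library total; SD, n = 3; exact permutation test, two-sided p = 0.6), so these counts, from 2 narrow intervals, do not check the label, and the second group is called by it. H2A.Z-2 is encoded by H2afv, and 0 intervals overlapped its floxed segment (chr11:6327229-6329228, exons 4 to 5). The study's own RNA and protein measurements of H2A.Z in these mice are not used here. The dKO replicate 1 stood apart from the other libraries. Median RPKM (counts per kb of interval, scaled to the library's total in intervals) of 9545 genic intervals more than 1 kb from any TSS was 85.1 in it, against 97.4 to 108 in the other 5 libraries. At promoters of 11 of 16 muscle fibre marker genes intervals were found, with 440 to 557 CPM in CTL and 471 to 577 in dKO. Endothelial markers with an interval (5 of 10) had 111 to 120 CPM in CTL and 89.9 to 100.1 in dKO, so that the groups did not overlap. Fibroblast markers (4 of 10) had 70.6 to 90.9 and 89.2 to 92.3, satellite cell markers (3 of 8) 104 to 138 and 120.03 to 146, smooth muscle and pericyte markers (3 of 7) 50.9 to 60.5 and 52.0 to 63.8, and none of 9 macrophage markers had an interval. No gene of these lists was among the members, and the part of cell composition in the results was not tested. In bulk nuclei, fewer nuclei with an open promoter and a less open promoter in each nucleus cannot be told apart.

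The sequences of 9 member promoters are shown as examples of the starts described below: internal promoters of muscle genes (Myl1, Ank1, Speg, Capn3), the members with a high level or a high ratio to the 5′-most promoter (Plec, Sp2, Pnrc1), and 2 that lie at the edges of the group comparison (Plekhg5, Nfix). Each runs 5′ to 3′ on the strand of the gene, from 200 bp upstream of the TSS to the 20th transcribed base, on mm9. Capitals mark matches on either strand to 8 motifs: the TATA box (TATAAA), the CCAAT box (CCAAT), the GC box (GGGCGG), 2 forms of the E-box (CAGCTG and CACGTG), the MCAT element (CATTCC), and the MEF2 and CArG sites by name. The spelled motifs do not contain one another, though neighbouring matches can overlap. The windows are Myl1-002 at chr1:66981909-66982128 (minus strand), Ank1-012 at chr8:24249302-24249521 (plus), Speg-008 at chr1:75396460-75396679 (plus), Capn3-001 at chr2:120289115-120289334 (plus), Plec-005 at chr15:76030246-76030465 (minus), Sp2-002 at chr11:96839006-96839225 (minus), Pnrc1-001 at chr4:33335466-33335685 (minus), Plekhg5-001 at chr4:151470628-151470847 (plus) and Nfix-004 at chr8:87298249-87298468 (minus). Every one of these TSSs lies in an intron of a transcript of its gene that starts farther upstream.
Myl1: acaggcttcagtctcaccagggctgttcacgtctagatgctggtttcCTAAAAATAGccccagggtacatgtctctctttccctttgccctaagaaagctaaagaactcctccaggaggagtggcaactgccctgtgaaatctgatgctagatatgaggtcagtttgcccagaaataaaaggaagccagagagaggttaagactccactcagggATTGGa
Ank1: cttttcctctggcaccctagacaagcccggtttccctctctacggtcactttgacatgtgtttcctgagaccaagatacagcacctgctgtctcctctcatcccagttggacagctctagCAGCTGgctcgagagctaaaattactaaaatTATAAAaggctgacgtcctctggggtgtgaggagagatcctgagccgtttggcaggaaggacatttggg
Speg: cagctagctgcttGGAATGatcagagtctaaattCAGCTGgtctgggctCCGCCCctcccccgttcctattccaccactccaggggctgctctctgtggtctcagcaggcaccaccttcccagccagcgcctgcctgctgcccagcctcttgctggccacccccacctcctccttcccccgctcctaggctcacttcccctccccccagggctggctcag
Capn3: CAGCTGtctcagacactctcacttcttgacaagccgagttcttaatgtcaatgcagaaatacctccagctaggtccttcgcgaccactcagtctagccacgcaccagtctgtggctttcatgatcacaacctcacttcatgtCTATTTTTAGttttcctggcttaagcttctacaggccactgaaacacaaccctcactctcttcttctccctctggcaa
Plec: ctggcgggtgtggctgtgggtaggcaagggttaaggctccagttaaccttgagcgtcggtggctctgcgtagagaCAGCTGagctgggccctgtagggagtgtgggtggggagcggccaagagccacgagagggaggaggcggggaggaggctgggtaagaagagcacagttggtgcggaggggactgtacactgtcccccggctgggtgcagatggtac
Sp2: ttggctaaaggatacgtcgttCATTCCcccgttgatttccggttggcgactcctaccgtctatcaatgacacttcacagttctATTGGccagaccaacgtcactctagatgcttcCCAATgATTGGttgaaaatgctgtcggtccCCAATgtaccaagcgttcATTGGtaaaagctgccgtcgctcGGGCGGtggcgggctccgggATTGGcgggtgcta
Pnrc1: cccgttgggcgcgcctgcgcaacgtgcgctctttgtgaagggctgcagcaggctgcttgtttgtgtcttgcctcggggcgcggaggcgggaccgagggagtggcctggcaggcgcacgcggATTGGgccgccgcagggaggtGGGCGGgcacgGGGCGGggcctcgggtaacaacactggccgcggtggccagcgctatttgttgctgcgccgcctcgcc
Plekhg5: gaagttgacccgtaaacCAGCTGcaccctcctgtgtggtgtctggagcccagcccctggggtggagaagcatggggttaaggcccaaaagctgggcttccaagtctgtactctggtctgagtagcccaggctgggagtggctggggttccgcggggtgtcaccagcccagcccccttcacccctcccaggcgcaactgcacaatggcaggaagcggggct
Nfix: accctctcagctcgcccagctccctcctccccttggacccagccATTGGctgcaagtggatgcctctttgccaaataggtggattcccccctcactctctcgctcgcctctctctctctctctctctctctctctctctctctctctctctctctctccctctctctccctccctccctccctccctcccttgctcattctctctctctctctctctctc

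The MEF2 match begins at -153 in Myl1 and at -58 in Capn3, counted from the TSS as +1. Ank1 holds a TATA box at -49 and an E-box at -80. Speg holds a GC box at -151, an E-box at -166 and an MCAT element at -187. Sp2 holds 6 CCAAT boxes, a GC box and an MCAT element at -179, and Pnrc1 holds a CCAAT box and 2 GC boxes. The Nfix window runs into a long stretch of alternating C and T. The printed windows follow the TSS and not the interval. The matches in Speg, Plec, Sp2 and Pnrc1 and the MEF2 match in Myl1 lie inside the member's interval, whereas those in Ank1, Capn3, Plekhg5 and Nfix and the CCAAT box in Myl1 lie outside it, and the Nfix window shares 0 bases with its interval. A match describes the letters only and says nothing of binding, and no comparison between groups rests on these letters.

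Most of the intervals contained the annotated start, and the others lay within the 300 bp that the rule allows on either side. Of the 1002 intervals 572 (57.1%) contained the internal TSS, compared with 59.1% of the intervals at 5′-most promoters, and 607 (60.6%) had their midpoint upstream of it, with a median offset of -23.5 bp. The TSS lay in an intron of a longer transcript of the gene for 923 intervals (92.1%), in an exon of one for 78 and in none for 1. Distance from the 5′-most TSS had a median of 25.2 kb, with quartiles of 11.3 and 61.8 kb. The range ran from 5.03 kb to 2905 kb, the latter at Fgfr2, a receptor of fibroblast growth factors, by a transcript model of unusual length in this annotation.

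**Figure D1:**
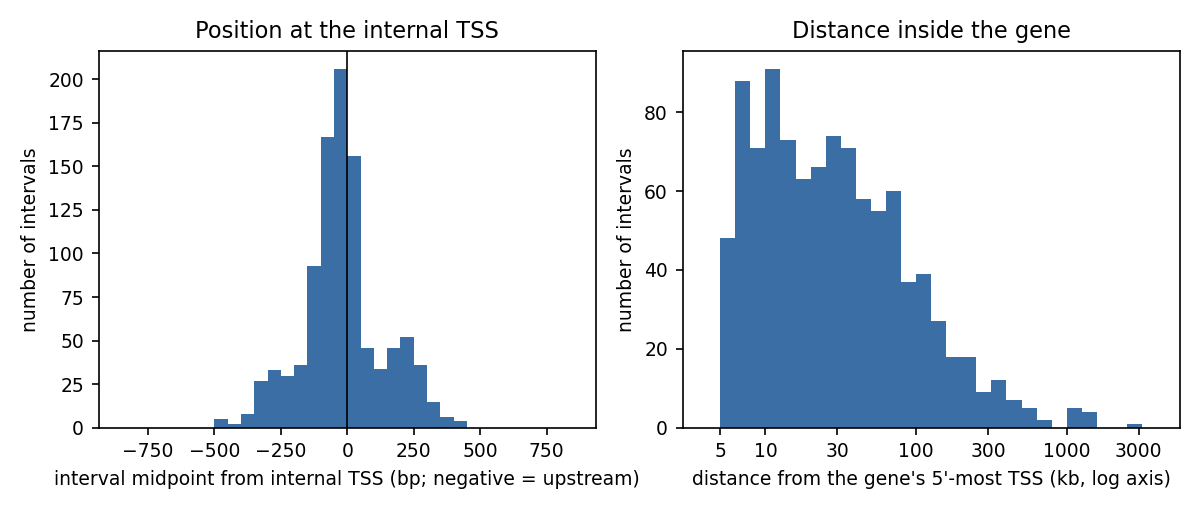
Number of member intervals by the distance of their midpoint from the nearest internal TSS (left, bp, negative values upstream) and by the distance of that TSS from the 5′-most TSS of the gene (right, kb, log axis). Midpoints gather just upstream of the TSS (median -23.5 bp), and the median distance inside the gene is 25.2 kb.

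Most genes had few such intervals. A single one was found in 343 genes, 2 in 169 and 3 or more in 97, when each interval was assigned to its nearest TSS (609 genes). The highest number, 6, was at Sirt1, the NAD-dependent deacetylase, where overlapping intervals covered 1 TSS region, and 206 members overlapped another member, so that a fragment end could count in both. The width of members ran from 9 to 1035 bp and had a median of 202 bp, compared with 230 bp at 5′-most promoters and 86 bp in the genic intervals away from any TSS. Of the members 158 (15.8%) were narrower than 73 bp, the span given to a fragment end in peak calling, against 29.2% of all intervals. By the methods the counted ends were extended by 37 bp, which inflates RPKM more the narrower an interval is. The authors listed 499 members (49.8%) as peaks of both groups, 352 (35.1%) for dKO only and 151 (15.1%) for CTL only. These shares lay between those of 5′-most promoters (60.2%, 26% and 13.8%) and those of all intervals (38.7%, 43.4% and 17.9%).

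Only some annotated internal starts had an interval in the table. Its intervals are numbered from 1 to 39768 with 0 numbers missing, whereas the study's methods give a larger union set, for a reason not given in the sources used here, so that a start without an interval is one without an interval in this table. An interval was present at 16.0% of the 7384 internal TSS positions that met the distance rules, against 44.1% of 21418 5′-most TSSs. For 277 of the 609 genes (45.5%) the 5′-most TSS had an interval as well, and for 332 it had none. In 296 genes, 430 members (42.9%) were the most upstream accessible TSS of the gene, so that no start farther upstream in the annotation had an interval. Stag1, a cohesin subunit gene, is of this kind, with Stag1-001 starting 45.65 kb downstream of the 5′-most annotated TSS.

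Of the 17 genes with a member in the list of textbook internal promoters, 6 had an interval at the 5′-most TSS as well and 11 had none, beside 277 and 332 of all 609 genes. Both were found in 8 of 19 genes of the sarcomere and cytoskeleton list, in 13 of 24 transcription factors and cofactors and in 5 of 19 signalling and metabolic enzymes. Myl1, Ank1, Camk2a, Ppargc1a (a transcriptional coactivator of mitochondrial genes), Runx1 (a transcription factor read from a distal and a proximal promoter) and Capn3 (the muscle protease calpain 3) had no interval at the 5′-most annotated TSS, and in each the member was the most upstream accessible start. Speg, which encodes a kinase of striated muscle and starts its shorter muscle forms at internal promoters, had intervals at both, as did Nos1, Lmna and Tpm1. These genes were named after their values were seen, except Ank1, Capn3 and Lmna, which the rule for named genes selected.

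Base composition differed between internal starts with an interval (called open) and without one in this table (called closed). In windows from 250 bp upstream to 50 bp downstream of the TSS, median GC content was 61.2% for the 1178 internal TSSs with an interval, 48.3% for the 6206 without one, and 61.7% for the 9445 5′-most TSSs with an interval. CpG-rich windows (GC of at least 50% and an observed to expected CpG ratio of at least 0.6) made up 55.3%, 6.40% and 75%. Open internal promoters were thus close to 5′-most promoters in GC content and held a smaller share of CpG-rich windows. A GC box occurred in 61.0% of open internal windows, in 13.0% of closed ones and in 69.1% of open 5′-most windows, with 43.7% over all 21418 5′-most windows. A TATA box occurred in 4.84%, 16.1% and 5.93% (all 5′-most windows, 13.5%), and a CCAAT box in 33.8%, 32.9% and 39.6% (37.6%). The E-box CAGCTG, the form bound by myogenic factors, was found in 21.0%, 19.3% and 14.1% (15.2%), and the form CACGTG in 7.05%, 4.79% and 10.9% (7.78%). MCAT elements occurred in 11.5%, 15.6% and 11.1% (13.4%), and CArG sites in 1.02%, 1.79% and 1.27% (1.39%). These shares are descriptions of the windows, given with no test. A gene can have several internal TSSs whose windows overlap and share a site, whereas it has a single 5′-most TSS.

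**Figure D2:**
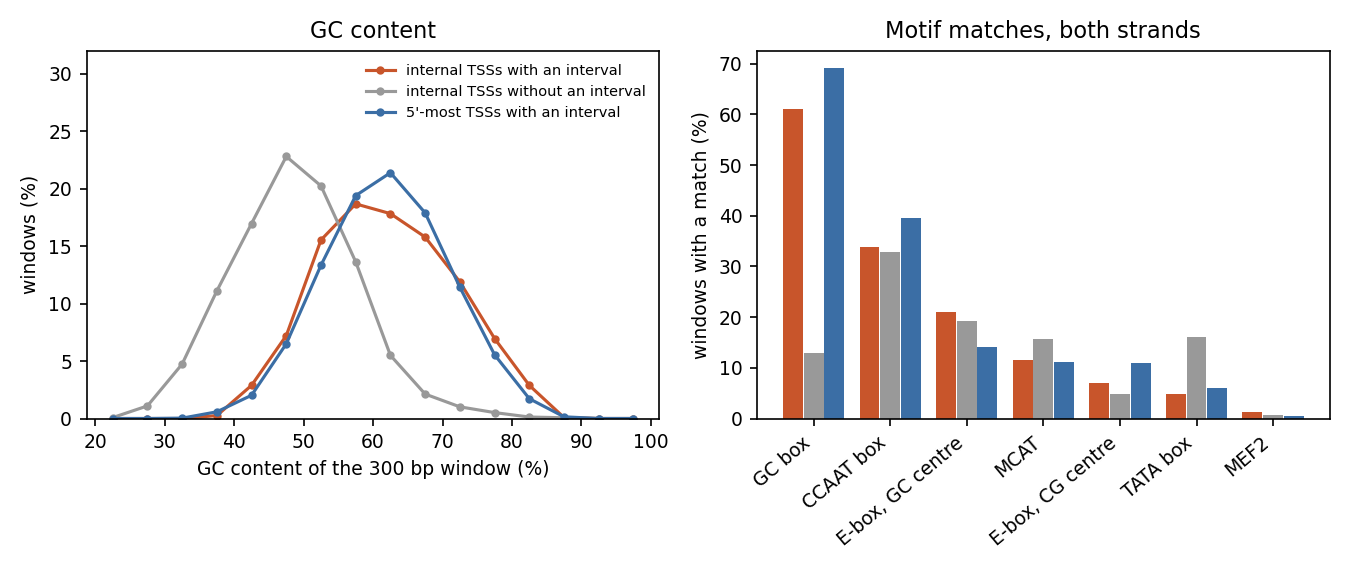
Left, share of 300 bp windows (%) by GC content (%) for internal TSSs with an interval, internal TSSs without one and 5′-most TSSs with one. Right, share of windows (%) with a match to each motif on either strand, in the same colours. Internal TSSs with an interval follow the 5′-most TSSs in GC content (medians 61.2% and 61.7%), and those without an interval lie lower (48.3%).

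A MEF2 site, the motif of the MEF2 factors of muscle genes, was rare everywhere, in 1.27% of open internal windows (15 of 1178), 0.596% of closed ones, 0.413% of open 5′-most windows and 0.476% of all 5′-most windows. The 15 windows belonged to 10 genes, Asph, Camk2a, Camk2b, Capn3, Fam110b, Hdac5, Myl1, Slc47a1, Tns1 and Zfp708, and windows of the same gene overlap. Several of these act in muscle. Asph encodes junctin of the sarcoplasmic reticulum among its products, Camk2a and Camk2b encode calmodulin-dependent kinase subunits, and Hdac5 encodes a histone deacetylase that represses MEF2. At Asph the 3 windows shared 1 site, and its interval had 122 ± 13.6 RPKM in CTL and 145 ± 16.1 in dKO (SD, n = 3; log2 fold change 0.24, SE 0.15). At Zfp708 the values were 181 ± 12.0 and 198 ± 7.35. At none of the 10 genes did the interval of highest RPKM at the window have an unadjusted p under 0.05 in edgeR, a value that 4.95% of all intervals reached. A second interval at Capn3 did, and it is described with the group comparison.

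CpG-rich promoters were the more accessible. The 547 members with a CpG-rich window had a median RPKM of 136 ± 1.5 in CTL and 136 ± 3.18 in dKO (SD, n = 3), and the 455 others 114 ± 0.599 and 116 ± 3.63. The CpG-rich members were higher in all 6 libraries, by more than the spread between libraries, and they were also wider, with a median of 238 bp against 168 bp.

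Across all members, median RPKM per library was 126, 128 and 127 in CTL and 127, 126 and 125 in dKO. Internal promoters lay below the 13859 intervals at 5′-most promoters, which had 136, 137 and 136 in CTL and 140.3, 134 and 135 in dKO, and above the genic intervals away from any TSS, in each of the 6 libraries. Their level moved little with dKO replicate 1, which was 127, whereas the genic intervals of that library were the lowest at 85.1. Members together held 3.37% ± 0.0107 of the counts in CTL and 3.35% ± 0.0263 in dKO (SD, n = 3). Single members ranged from 48.4 to 383 RPKM over the mean of the libraries, with quartiles of 98.3 and 166, and a member had a median of 111 counts per library. At the limits of the rule, the 47 members 250 to 300 bp from a TSS had a median of 123 RPKM and 41 intervals 300 to 350 bp away had 115. The 39 members 5 to 6 kb inside the gene had 145, and 79 intervals 4 to 5 kb inside had 144. No member lay 1000 to 1200 bp from another gene's 5′-most TSS, and 7 intervals left out 800 to 1000 bp away had a median of 131.

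The 10 genes with the most accessible members were of varied function, Sp2, Triobp, Stag1, Iffo2, Plec, Tef, Rbpj, Rnf44, Arhgap26 and Tbc1d14. The highest was Sp2, a GC-box binding transcription factor, at Sp2-002, 5.25 kb inside the gene (chr11:96838922-96839465). Its RPKM were 394, 419 and 386 in CTL and 330.5, 380.5 and 387 in dKO, so that the groups overlapped. Stag1 came next after Sp2 and the 10 bp interval of Triobp, with 357, 374 and 357 in CTL and 346, 350.4 and 333 in dKO. Every dKO library was below every CTL library there, by a log2 fold change of only -0.08 (SE 0.10). Iffo2, an intermediate filament family gene, had 325, 349.8 and 384 in CTL and 363, 336 and 332 in dKO. Tef, a circadian transcription factor of the PAR bZIP family, had 306, 299 and 315 in CTL and 348, 315 and 296 in dKO. Both sets overlapped. Tbc1d14, a regulator of autophagy, had 269, 257 and 288 in CTL and 349, 277 and 277 in dKO.

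Some of the highest values came from very narrow intervals. Triobp, which encodes an actin-binding protein, had 441, 475 and 199 RPKM in CTL and 511, 329.7 and 239 in dKO in an interval of 10 bp, which rests on 7 to 30 counts per library. Rnf44, a ubiquitin ligase gene, had 297, 334 and 265 in CTL and 306, 319.7 and 253 in dKO over 44 bp. Rbpj, the DNA-binding partner of Notch, had 310.0, 201 and 235 in CTL and 587, 212 and 268 in dKO over 29 bp. Its high dKO value came from replicate 1 alone, and the log2 fold change of 0.53 turned to -0.10 without that library.

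**Figure D3:**
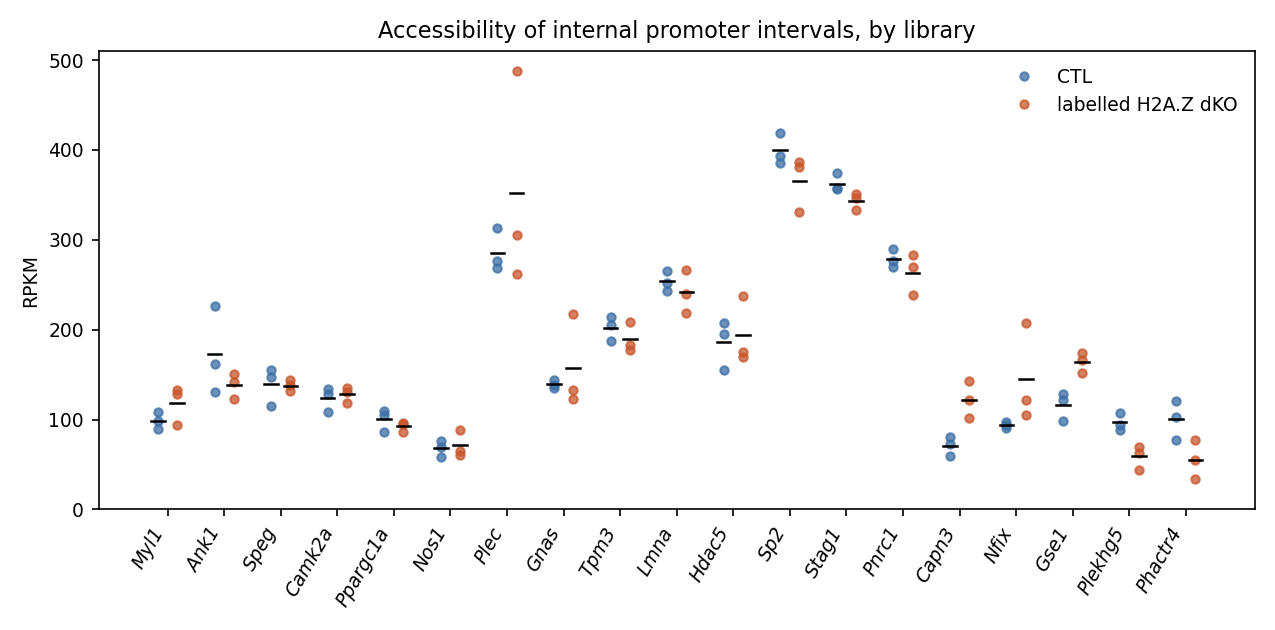
RPKM (counts per kb of interval, scaled to the library's total in intervals, axis from 0) of 19 named member intervals in each CTL library and each library labelled H2A.Z dKO; points are libraries and bars are means of 3. The groups overlap at Myl1, Ank1, Speg and Sp2, and 1 dKO library stands high at Plec. They do not overlap at Stag1, Capn3, Nfix, Gse1, Plekhg5 and Phactr4. All of these but Stag1 were named for a small p, and the groups did not overlap at 10.6% of all intervals.

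At Myl1, Ank1, Speg-008, Camk2a, Ppargc1a and Nos1 the groups overlapped, and at Runx1 they did not. The Myl1 interval (chr1:66982001-66982163) had 97.9, 108 and 89.4 RPKM in CTL and 93.5, 129 and 133 in dKO. Ank1 (chr8:24249467-24249556) had 162, 131 and 227 in CTL and 142, 151 and 123 in dKO. Speg-008 (chr1:75396383-75396763) had 147, 115 and 156 in CTL and 138, 131 and 144 in dKO. At Ank1 and Speg each dKO library lay within or next to the range of the CTL libraries, and at Myl1 2 dKO libraries were above every CTL library. Camk2a had 129, 134 and 109 in CTL and 135, 131 and 119 in dKO, and Ppargc1a had 109.7, 85.8 and 105 in CTL and 86.3, 96.3 and 95.5 in dKO. Runx1 had 151, 163 and 156 in CTL and 127, 142 and 150.4 in dKO, where every dKO library was below every CTL library (log2 fold change -0.17, SE 0.13). Nos1, the neuronal nitric oxide synthase that muscle fibres also make, had 57.8, 75.6 and 69.9 in CTL and 64.8, 60.9 and 88.1 in dKO. Over the list of textbook internal promoters, 17 of 34 genes had a member, with 33 intervals. None passed the test (edgeR, adjusted p under 0.05, as did 0% of all intervals), 18 had a log2 fold change above 0 and 15 below, and the median was 0.03, where 52.5% of all intervals were above 0. An unadjusted p under 0.05 was found for 2 of the 33, at Speg and Tcf4, against 4.95% of all intervals. Without dKO replicate 1, 13 were above 0 and the median was -0.05, beside 50.3% and 0.002 over all intervals, and 5 of the 33 (15.2%) had such a p against 7.95%.

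Genes of the sarcomere, the cytoskeleton and membrane anchoring gave 38 intervals in 19 of 55 genes. None passed the test (edgeR, adjusted p over all intervals). A log2 fold change above 0 was seen in 28 and below 0 in 10, with a median of 0.11. Over all intervals 52.5% were above 0 and the median was 0.01. Without dKO replicate 1 the count above 0 was 23 and the median 0.10, beside 50.3% and 0.002 over all intervals in the same fit. Intervals of 1 gene share libraries and often a promoter region, so that they are not independent. Plec, which encodes the linker protein plectin and starts at many alternative first exons, had 4 of these intervals with log2 fold changes of 0.23 to 0.31. At the highest (Plec-005, chr15:76030246-76030408) RPKM were 313, 276 and 268 in CTL and 488, 305 and 262 in dKO. That difference rested on dKO replicate 1, since the log2 fold change of 0.31 became -0.05 without it. Lmna, the gene of lamins A and C, had 243, 266 and 252 in CTL and 239, 267 and 219 in dKO at Lmna-003. Tpm3, the slow-fibre tropomyosin gene, had 188, 214 and 205 in CTL and 178, 183 and 209 in dKO. Synpo, an actin-binding protein gene, had 228, 222 and 292 in CTL and 318, 272 and 273 in dKO. A second Speg interval, 84 bp wide at Speg-014, had 42, 31 and 26 counts in CTL and 54, 60 and 44 in dKO. It was the only interval of this list with an unadjusted p under 0.05, a value that 4.95% of all intervals reached. Without dKO replicate 1, 2 intervals of the list had such a p, beside 7.95% of all intervals.

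Transcription factors and cofactors had 38 intervals in 24 of 72 genes. None passed the test, 23 were above 0 and 15 below, and the median log2 fold change was 0.06 (17 above 0 and -0.03 without dKO replicate 1). The share of all intervals above 0 was 52.5%, and 50.3% without that library. Rara, the retinoic acid receptor alpha, was among the most constant, with 242, 235 and 247 RPKM in CTL and 243, 249 and 252 in dKO. Hdac5 had 195, 155 and 208 in CTL and 238, 175 and 169 in dKO. Nfib, a nuclear factor I gene, had 202, 274 and 227 in CTL and 249.7, 168 and 279 in dKO. In all 3 the groups overlapped. Mef2c, a MEF2 factor, had 72.5, 95.9 and 45.2 in CTL and 136, 85.9 and 88.4 in dKO (log2 fold change 0.53, SE 0.25). The groups overlapped, and the log2 fold change of Mef2c was 0.24 without dKO replicate 1 and 0.33 without CTL replicate 3. Mef2c, Nfix and Tcf4 each had 1 interval with an unadjusted p under 0.05, which makes 3 of 38, against 4.95% of all intervals. With dKO replicate 1 left out, 1 interval of the list had such a p, against 7.95%.

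Signalling and metabolic enzymes had 40 intervals in 19 of 74 genes. None passed the test, 20 were above 0 and 20 below, and the median was 0.004 (16 above 0 and -0.07 without dKO replicate 1). Over all intervals 52.5% were above 0, and 50.3% without that library. An unadjusted p under 0.05 in edgeR was found for 1 of the 40, at Prkag2, against 4.95% of all intervals. Without dKO replicate 1 it was found for 3 (7.5%), against 7.95%. Sgk1, a serum- and glucocorticoid-regulated kinase, had 288, 297 and 299 RPKM in CTL and 257, 301 and 269.9 in dKO. Acaca, the acetyl-CoA carboxylase of fatty acid synthesis, had 250.3, 239 and 242 in CTL and 225, 246 and 222 in dKO. Pfkm, the muscle phosphofructokinase, had 218, 257 and 203 in CTL and 207, 262 and 237 in dKO. The groups overlapped at each. Pde4b, a cyclic AMP phosphodiesterase, had 242, 224 and 295 in CTL and 221, 187 and 184 in dKO in an interval of 27 bp, with no overlap between groups. Gnas, the gene of the stimulatory G protein alpha subunit, whose several promoters are partly imprinted, had 135, 144 and 139 in CTL and 217, 123 and 133 in dKO. Its high value again came from dKO replicate 1, and its log2 fold change of 0.19 was -0.14 without it.

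Where both promoters of a gene were open, the 5′-most one more often had the higher level, in most genes by less than 2-fold. In the 277 genes with an interval at the 5′-most TSS, the interval of highest mean RPKM was taken on each side. On the internal side it was taken over all members of the gene, which can lie at several internal TSSs. On the other side it was taken at the 5′-most TSS only, so that the choice can favour the internal side. The internal promoter had the higher mean RPKM in 119 genes and the 5′-most promoter in 158, with a median log2 ratio of internal to 5′-most of -0.16. The ratio was within 2-fold in 217 genes, the internal promoter was at least 2-fold higher in 18, and the 5′-most promoter in 42. In 70 genes the internal promoter was higher in all 6 libraries and in 112 lower in all 6. A 2-fold difference in all 6 libraries was seen in 5 genes for the internal promoter and in 25 for the 5′-most one. The median log2 ratio per library was -0.13, -0.14 and -0.11 in CTL and -0.29, -0.10 and -0.08 in dKO, with replicate 1 the lowest.

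**Figure D4:**
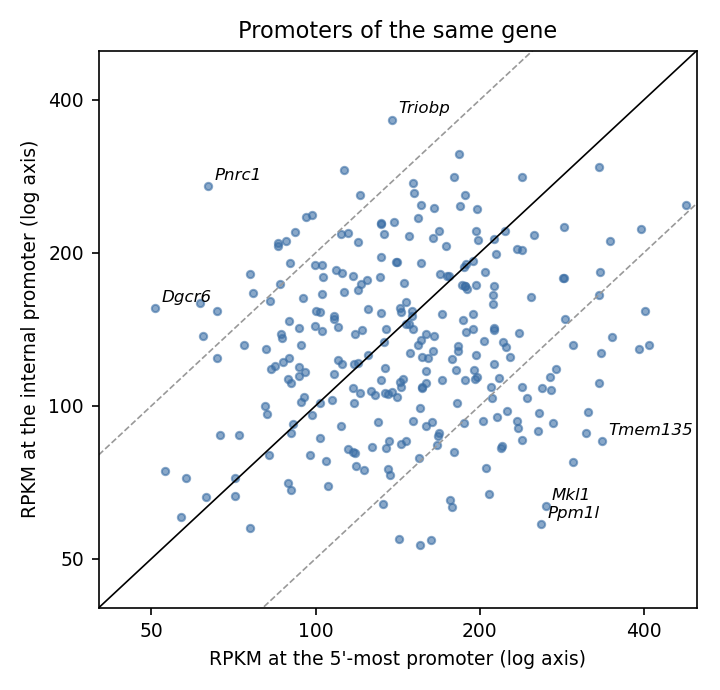
Mean RPKM over 6 libraries at the internal promoter against the 5′-most promoter of the same gene (both log axes), 1 point per gene for 277 genes. The solid line marks equal values and the dashed lines a 2-fold difference; 217 genes lie within 2-fold, 18 above and 42 below.

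The ratio was highest at Pnrc1, a coregulator of nuclear receptors, where a start 41.7 kb inside the annotated gene carried the higher signal. Its internal interval had 269.8, 289 and 276 RPKM in CTL and 283, 269 and 238 in dKO, and its 5′-most interval 43.6, 70.1 and 61.0 in CTL and 41.9, 80.5 and 84.5 in dKO, a log2 ratio of 2.09. Dgcr6, a gene of the DiGeorge region, had 149.5, 166 and 158 in CTL and 152, 154 and 156 in dKO at the internal start, and 21.2 to 68.0 over the 6 libraries at the 5′-most start, a log2 ratio of 1.61. Its internal TSS lies in an exon of a longer transcript. Triobp came next at 1.41, by the 10 bp interval named above. Acaca, with known tissue-dependent promoters, had a log2 ratio of 1.27, from 83.5 to 118 at the 5′-most start. The lowest ratios were at Ppm1l, a protein phosphatase gene, at -2.15, Mkl1, a coactivator of serum response factor, at -2.06, and Tmem135, a gene of mitochondrial and peroxisomal biology, at -1.98. Ppm1l had 66.9, 50.7 and 54.9 in CTL and 41.9, 59.1 and 76.9 in dKO at the internal start, against 225 to 308 at the 5′-most one. Tmem135 had 73.6 to 110.1 at the internal start and 301 to 361 at the 5′-most one. In each of these 7 genes the order of the promoters was the same in every library, as it was in 182 of the 277 genes. All but Acaca were chosen for an extreme ratio over these same libraries, which favours a constant order.

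The ratio between promoters was compared between the groups with limma on the log2 ratio of each library. Of the 277 genes 0 were past an adjusted p of 0.05 (Benjamini-Hochberg over the 277, smallest 0.715), and 14 (5.05%) had an unadjusted p under 0.05, 7 with a higher and 7 with a lower ratio in dKO. That number was 9 without CTL replicate 3. For single genes an exact permutation test of 3 libraries against 3 has 10 splits and cannot go below p = 0.1, a value that 34 of the 277 genes (12.3%) reached, so that it allows no call. At Pnrc1 the log2 ratio was 2.28 ± 0.31 in CTL and 2.00 ± 0.67 in dKO (SD, n = 3; exact permutation test, two-sided p = 0.6; 95% confidence interval of the difference by limma -0.98 to 0.41), and at Ppm1l it was -2.07 ± 0.29 and -2.26 ± 0.55 (the same exact test, p = 0.6; interval -0.80 to 0.43).

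No internal promoter differed between CTL and dKO by the test across all intervals. With p-values of the quasi-likelihood test of edgeR adjusted over 39768 intervals (Benjamini-Hochberg), 0 of 1002 members and 0% of all intervals were past the threshold of 0.05. The smallest adjusted p was 0.972 among the members and 0.615 among all intervals. At an unadjusted p under 0.05, 46 members (4.59%) stood out, which is near the background of 4.95%. Of these 26 (2.59%) were higher in dKO against a background of 2.64%, and 20 (2.00%) were lower against 2.31%. DESeq2 gave 0 adjusted calls, and 13 higher and 7 lower members at an unadjusted p, where 1.06% and 0.842% of all intervals were higher and lower. The RPKM of the groups did not overlap at 113 members (11.3%), against 10.6% of all intervals.

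The estimates bounded most changes of the relative signal in bulk nuclei. The scaling removes a shift common to most intervals, and nuclei of cell types without active HSA-Cre also count. The bounds therefore do not hold for fibre nuclei alone. The median log2 fold change of the members was 0.002, with a median absolute value of 0.11, and 0 members reached an absolute value of 1. For 673 members (67.2%, against 49.6% of all intervals) both ends of the 95% confidence interval were under a 1.5-fold change, and for 961 (95.9%, against 91.4%) under a 2-fold change. The counts at an unadjusted p depended on single libraries. Without dKO replicate 1, 34 members (3.39%) were higher and 40 (3.99%) lower and the median log2 fold change was -0.03. In the same fit 4.24% of all intervals were higher and 3.71% lower, with a median of 0.002. The lower count fell to 8 members without CTL replicate 3, where 1.24% of all intervals were lower (1.94% were higher), and to 12 without CTL replicate 1, where 2.33% were lower (2.58% higher).

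**Figure D5:**
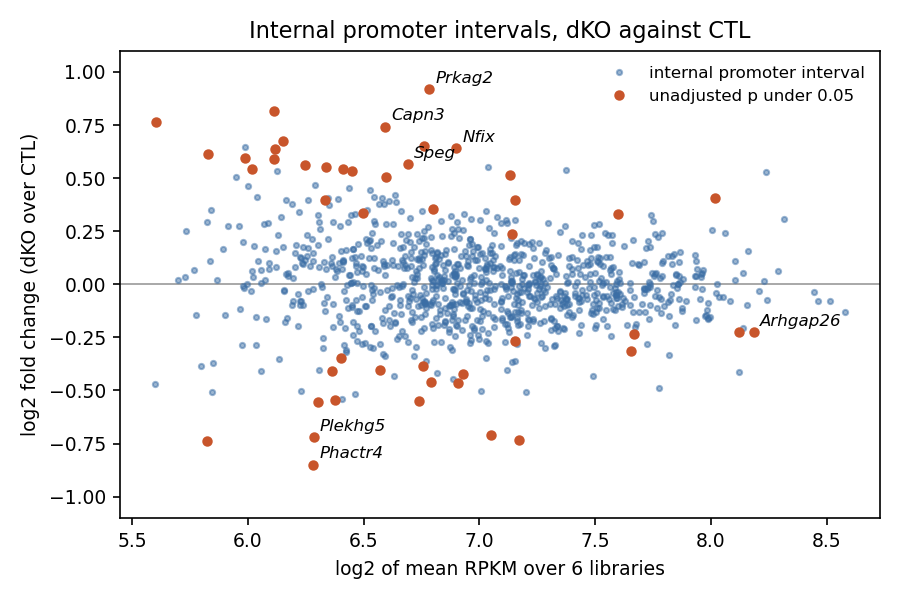
Log2 fold change (dKO over CTL, edgeR) against log2 mean RPKM over 6 libraries for the 1002 members, with those at an unadjusted p under 0.05 in orange. Values lie around 0 (median 0.002) and spread more at low RPKM, and none of the 1002 is past the adjusted threshold.

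The members at the edges of this distribution are given by their values, since none was past the threshold (all with an adjusted p of 0.972 in edgeR). Capn3 (chr2:120289283-120289360) had 80.7, 72.9 and 59.0 RPKM in CTL and 102, 143 and 122 in dKO, a log2 fold change of 0.74 (SE 0.24). Every dKO library was above every CTL library, whereas a second interval at the same promoter, 25 bp wide, had a log2 fold change of 0.01. Nfix (chr8:87297820-87298079), a nuclear factor I gene of fetal muscle, had 93.4, 90.9 and 97.6 in CTL and 207, 121 and 105 in dKO, a log2 fold change of 0.64 (SE 0.22), with dKO replicate 1 the highest. Without that library it was 0.25. Gse1 had 98.5, 121 and 128 in CTL and 174, 152 and 166 in dKO (0.52, SE 0.18). Lrrfip1, which encodes a nucleic acid binding protein, had 172, 168 and 175 in CTL and 242, 183 and 221 in dKO (0.33, SE 0.12), and 0.22 without dKO replicate 1.

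In the other direction, Plekhg5 (chr4:151470729-151470963), a guanine nucleotide exchange factor gene, had 108, 94.2 and 88.6 RPKM in CTL and 63.3, 69.5 and 44.3 in dKO, a log2 fold change of -0.72 (SE 0.20). Stard13, a GTPase activating protein gene, was represented by 2 overlapping intervals. The wider had 128, 144 and 144 in CTL and 87.3, 113 and 103 in dKO (-0.46, SE 0.16), and the narrower, 40 bp wide, had a log2 fold change of -0.74 (SE 0.26). Phactr4, a protein phosphatase and actin regulator gene, had 77.6, 103 and 121 in CTL and 34.1, 76.9 and 54.8 in dKO over 40 bp (-0.85, SE 0.32), from 8 to 19 counts per library. A second Phactr4 interval at that TSS, 158 bp wide, had a log2 fold change of -0.14. Elavl2, a neuronal RNA-binding protein gene, had 74.9, 46.2 and 91.1 in CTL and 24.7, 45.3 and 57.8 in dKO (-0.74, SE 0.29), and the groups overlapped. The Elavl2 value was -0.45 without dKO replicate 1. The largest absolute value, 0.92 (SE 0.35), was at Prkag2, a regulatory subunit of AMP-activated protein kinase, in an interval of 24 bp, where CTL counts were 7, 7 and 11 and dKO counts 20, 14 and 18. Scaled for depth, its RPKM were 47.7, 63.0 and 130.2 in CTL and 142, 128 and 149 in dKO, and the groups overlapped. The log2 fold change was 0.60 without CTL replicate 1. A wider Prkag2 interval, 460 bp, had 0.20. Arhgap26, a GTPase activating protein gene among the 10 genes with the highest members, had 297, 303 and 339 in CTL and 233, 277 and 295 in dKO (-0.22, SE 0.11), again with no overlap and no adjusted call, and -0.15 without dKO replicate 1.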

How the data were processed

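Per the labels and the methods, reads were trimmed by the authors (Trimmomatic), mapped to mm9 in pairs (Bowtie2) and freed of duplicates (Picard), the ends of the fragments were moved to the centre of the Tn5 cut, and MACS2 called the peaks. Tool versions are not given in the sources used here. The deposited values are raw counts of these ends in each interval, not normalized. Its columns from the authors' DESeq2 comparison (fold changes and p-values) were not used. All count columns were matched to samples by name. The header lacks 1 column name, which belongs to a mean of scaled counts. Whether interval starts count from 0 or 1 is not stated, and positions are printed as the table gives them.

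Intervals were matched to GENCODE vM1 TSSs in Python 3.11.15 with pandas 2.3.3, and sequences were read with pysam 0.24.0 from the mm9 assembly, whose chromosome names and lengths fit the annotation. Counts of all 39768 intervals were compared with edgeR 4.0.16 in R 4.3.3 (TMM factors, robust quasi-likelihood test, no replicate block, no filter on counts, Benjamini-Hochberg threshold 0.05) between 3 CTL and 3 dKO libraries. Library totals of 3520008 to 6117245 counts limit precision, and errors cover counting and the spread between libraries only. RPKM divide a count by interval width and by the library's total in intervals. DESeq2 1.42.0, limma 3.58.1 (voom), other scalings, a count filter, a replicate block, left-out libraries and other membership rules were alternatives. Counts of role lists without dKO replicate 1, shares of all intervals in the alternative fits and a limma fit of the log2 promoter ratios were added after seeing the data. Both fits were tested on simulated data.

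Named members are the 10 of highest mean RPKM, 1 per gene, the 5 of smallest p in each direction, up to 4 per role list by mean RPKM, and the 3 highest and 3 lowest promoter ratios. Of the members this rule names, 2 are not reported here. Myl1, Speg, Camk2a, Ppargc1a, Runx1, Nos1, Mef2c, Prkag2, Tpm1 and the genes with a MEF2 match were chosen after their values were seen, as were second intervals of a named promoter. The members and lists were chosen with earlier results of these data known.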

Additional observations from a re-analysis of the deposited data

How the results depend on the processing

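No member passed the adjusted threshold under any of the 12 alternative fits (DESeq2, limma voom, median-of-ratios factors, total counts, at least 20 counts in every library, a replicate block and each library left out), and the lowest adjusted p of a named interval under any of them was 0.392. At an unadjusted p under 0.05, DESeq2 gave 13 higher and 7 lower members, where 1.06% and 0.842% of all intervals were higher and lower. Leaving out each library in turn gave 18 to 34 higher members (1.8% to 3.39%) and 8 to 40 lower (0.798% to 3.99%). Over all intervals the same fits gave 1.94% to 4.24% higher and 1.24% to 3.71% lower. The median log2 fold change ran from -0.030 to 0.013 with a library left out, and was 0.011 over the 905 members with at least 20 counts in every library, -0.0093 over the 758 within 100 bp of the TSS and -0.0093 over the widest interval per TSS (689). Median RPKM was 129 within 100 bp and 124 for the widest interval per TSS, beside 126 for all members. The share of counts was 3.14% for 936 members matched by their midpoint, 2.96% within 100 bp, 3.0% for 900 members with the 5′-most TSS taken over protein-coding transcripts and 2.72% for the widest interval per TSS, beside 3.36%. Replicate numbers did not pair the samples (correlations of same-numbered deviations of -0.098, -0.053 and -0.032). The fit with the replicate block gave 22 higher (2.2%) and 15 lower (1.5%) members at an unadjusted p under 0.05, against 2.29% and 2.13% of all intervals. It gave 0 adjusted calls and a median log2 fold change of -0.0023. Of 46 named intervals 30 kept the sign of their log2 fold change throughout. The log2 fold changes of 0.53 at Rbpj, 0.31 at Plec and 0.19 at Gnas turned below 0 without dKO replicate 1. Nfib was -0.014 with voom and -0.0067 with the block, Ppm1l -0.015 and -0.0031, and Speg-008 0.0022 with voom. With a library left out the log2 fold change ran from -0.031 to 0.10 at Camk2a, -0.073 to 0.0048 at Dgcr6, -0.14 to 0.35 at Gnas, -0.13 to 0.17 at Hdac5, -0.098 to 0.028 at Iffo2, -0.13 to 0.19 at Nfib, -0.098 to 0.18 at Nos1, -0.025 to 0.15 at Pfkm, -0.045 to 0.48 at Plec, -0.21 to 0.21 at Ppm1l, -0.098 to 0.79 at Rbpj, -0.10 to 0.058 at Rnf44, -0.13 to 0.070 at Speg, -0.029 to 0.12 at Tef, -0.12 to 0.22 at Tmem135 and -0.49 to 0.15 at Triobp. The number of promoter ratios at an unadjusted p under 0.05 in limma was 14 with a pseudocount of 1 and with the replicate block, 16 with summed intervals, and 9 to 16 with a library left out, and 0 were past the adjusted threshold in each. This test was chosen after seeing the data. The causes were not tested. Members with 5 to 20 counts in a library, and narrow intervals, are limited by depth.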
